A study of Mus musculus with 8 samples.

Results

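The 141 immunoglobulin variable (V) segments described here are the names beginning Ighv (heavy chain), Igkv (kappa light chain) or Iglv (lambda light chain) whose mean over 8 mouse lung RNA-seq libraries was at least 1 FPKM, a level per length of feature and per depth of library. They comprised 65 Ighv, 73 Igkv and 3 Iglv names, out of 225 such V names and of 39290 names in the deposited table. The members were chosen by this mean over all 8 libraries, both groups included, so their presence above that level is not a result. Of the 141, 76 reached a mean of 1 FPKM in both groups, 64 reached it in the high dose group alone and 1 in the model group alone. A segment that entered through the high dose group alone had to be higher there, and the 1 that entered through the model group alone, Ighv12-3, had to be lower in the high dose group. Just inside the limit were Ighv1-20 (1.01 FPKM over all libraries) and Ighv1-61 (1.03 FPKM), and just outside were Ighv1-63 (0.973 FPKM) and Ighv1-4 (0.965 FPKM).

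The 8 libraries fell into 2 groups of 4, titled high dose and model. The series is titled for Platycodin D, a plant saponin, in mice modelling idiopathic pulmonary fibrosis, in which the lung is progressively scarred. The way the model was made, the agent and amount behind the title high dose, the strain and age of the animals and any untreated group are not given in the sources used. Whatever induced the model may therefore be common to both groups, and no comparison with healthy lung was made. The initials in the submitters' library codes would suit the reverse assignment, and if the titles had been swapped every direction below would turn. The labels do not tie libraries to separate animals. The p-values therefore set the difference between groups only against the spread among these libraries, and that spread may be technical.

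Each B cell joins 1 V segment to D and J segments for its heavy chain, and 1 V segment to a J segment for its kappa or lambda light chain. Together these make the antigen-binding part of the antibody. A plasma cell, the antibody-secreting descendant of a B cell, devotes much of its transcription to its rearranged heavy and light chain genes, so V transcripts in lung RNA come mainly from such cells and from B cells. The mix of V segments in a tissue is called its repertoire: many segments at low shares can reflect many clones, whereas 1 segment at a large share can come from 1 expanded clone or from many clones that use the same segment. Bulk FPKM values cannot tell more cells of a type from more RNA per cell.

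V segments resemble one another closely, which bears on every value of a single segment. Among the 140 members with a coding sequence in GENCODE M21 (GRCm38), the median identity to the most similar other member was 94.4%, and 62 were at least 95% identical to another. Reads shared by near-identical segments, or carrying somatic mutations, could be assigned to a neighbour, and the rule of assignment is not given in the sources used. The last 300 bases of the germline coding sequences of the leading kappa segments, Igkv1-117 and Igkv1-110 (both chromosome 6, + strand), are shown because one or other of them took first or second place in every library although only 10 of these 300 bases differ. Capitals mark the bases that differ within each pair, here and in the pairs that follow, each given as its last 300 coding bases.
Igkv1-117: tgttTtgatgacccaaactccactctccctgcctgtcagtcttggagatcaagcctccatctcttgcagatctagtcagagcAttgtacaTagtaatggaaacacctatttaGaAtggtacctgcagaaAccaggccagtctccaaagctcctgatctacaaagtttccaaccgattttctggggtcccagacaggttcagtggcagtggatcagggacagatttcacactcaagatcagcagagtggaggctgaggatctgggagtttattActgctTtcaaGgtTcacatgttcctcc
Igkv1-110: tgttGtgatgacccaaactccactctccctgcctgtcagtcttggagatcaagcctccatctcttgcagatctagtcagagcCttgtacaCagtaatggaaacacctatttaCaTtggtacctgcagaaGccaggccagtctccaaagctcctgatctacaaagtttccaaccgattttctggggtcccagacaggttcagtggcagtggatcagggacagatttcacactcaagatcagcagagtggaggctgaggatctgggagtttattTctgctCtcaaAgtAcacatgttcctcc

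The lambda segments Iglv1 and Iglv2 (chromosome 16, - strand) are shown because their balance differed between libraries. They differ at 8 of 300 bases.
Iglv1: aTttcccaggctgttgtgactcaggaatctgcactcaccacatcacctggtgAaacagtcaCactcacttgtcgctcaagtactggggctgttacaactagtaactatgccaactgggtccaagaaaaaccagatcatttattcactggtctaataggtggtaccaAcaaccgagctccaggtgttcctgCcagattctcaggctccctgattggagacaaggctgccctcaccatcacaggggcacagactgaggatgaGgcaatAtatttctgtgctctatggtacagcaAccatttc
Iglv2: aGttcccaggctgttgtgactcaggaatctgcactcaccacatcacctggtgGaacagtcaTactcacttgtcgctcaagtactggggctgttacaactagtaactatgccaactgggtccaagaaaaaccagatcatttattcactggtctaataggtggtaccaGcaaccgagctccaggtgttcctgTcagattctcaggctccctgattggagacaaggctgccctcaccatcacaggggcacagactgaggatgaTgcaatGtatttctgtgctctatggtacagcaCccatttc

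Ighv1-53, the heavy segment with the highest mean, is set beside Ighv1-72, another called member of the same coding length (both chromosome 12, - strand). They differ at 12 of 300 bases.
Ighv1-53: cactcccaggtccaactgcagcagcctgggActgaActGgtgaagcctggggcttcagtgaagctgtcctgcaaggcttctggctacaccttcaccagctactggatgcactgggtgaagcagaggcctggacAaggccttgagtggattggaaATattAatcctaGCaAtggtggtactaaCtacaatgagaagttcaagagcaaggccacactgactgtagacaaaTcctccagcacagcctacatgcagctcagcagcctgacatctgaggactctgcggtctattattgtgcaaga
Ighv1-72: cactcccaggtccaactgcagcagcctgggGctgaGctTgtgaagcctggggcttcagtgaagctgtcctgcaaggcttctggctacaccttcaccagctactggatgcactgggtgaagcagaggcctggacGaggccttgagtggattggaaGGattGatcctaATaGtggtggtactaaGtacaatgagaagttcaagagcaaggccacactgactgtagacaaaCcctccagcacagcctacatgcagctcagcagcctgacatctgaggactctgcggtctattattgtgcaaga

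Igkv4-50, which took a large share in 1 library only, is set beside Igkv4-61, the member of its length that resembled it most closely (chromosome 6, - strand for both). They differ at 27 of 300 bases, so a read over the differing stretches could separate these segments more readily than those of the other pairs.
Igkv4-50: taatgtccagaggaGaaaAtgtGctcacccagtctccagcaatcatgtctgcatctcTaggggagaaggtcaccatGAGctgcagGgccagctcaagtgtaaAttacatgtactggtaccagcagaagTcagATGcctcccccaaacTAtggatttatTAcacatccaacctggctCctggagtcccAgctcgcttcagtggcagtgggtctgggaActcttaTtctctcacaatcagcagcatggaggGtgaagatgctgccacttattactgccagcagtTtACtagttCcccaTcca
Igkv4-61: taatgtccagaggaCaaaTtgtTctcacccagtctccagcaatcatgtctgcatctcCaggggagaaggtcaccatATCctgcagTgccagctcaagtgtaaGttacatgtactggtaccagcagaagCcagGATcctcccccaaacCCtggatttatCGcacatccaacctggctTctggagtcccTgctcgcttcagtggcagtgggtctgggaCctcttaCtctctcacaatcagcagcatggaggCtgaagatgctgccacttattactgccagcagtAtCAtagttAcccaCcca

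V transcripts were more abundant in the high dose libraries for heavy and kappa chains, and every high dose library lay above every model library for both. The Ighv members summed to 247, 475, 174 and 1115 FPKM in high dose replicates 1 to 4, against 39.8, 102, 73.9 and 93.9 FPKM in model replicates 1 to 4. The Igkv members summed to 606, 749, 408 and 2295 FPKM in the high dose libraries, against 102, 237, 175 and 199 FPKM in the model libraries. For the Iglv members the sums were 37.7, 82.8, 43.4 and 311 FPKM in the high dose libraries, against 10.2, 22.4, 18.9 and 41.4 FPKM in the model libraries. Here the groups overlapped, since high dose replicate 1 lay below model replicate 4. High dose replicate 4 had the highest sum at all 3 loci and the highest FPKM of 118 of the 141 segments.

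The mean Ighv sum was 503 ± 428 FPKM in the high dose group and 77.3 ± 27.6 FPKM in the model group (SD, n = 4 each), a log2 ratio of 2.70. The mean Igkv sum was 1015 ± 865 FPKM in the high dose group and 178 ± 56.9 FPKM in the model group (log2 ratio 2.51), and the mean Iglv sum was 119 ± 130 FPKM in the high dose group and 23.2 ± 13.2 FPKM in the model group (log2 ratio 2.35). Without high dose replicate 4 these log2 ratios were 1.95, 1.72 and 1.23 for Ighv, Igkv and Iglv. These sums run over members chosen with their values known and were given no test. All 225 V names together made up 0.230%, 0.305%, 0.155% and 0.839% of the FPKM of named genes in the high dose libraries, against 0.0390%, 0.0834%, 0.0665% and 0.0810% in the model libraries.

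**Figure D1:**
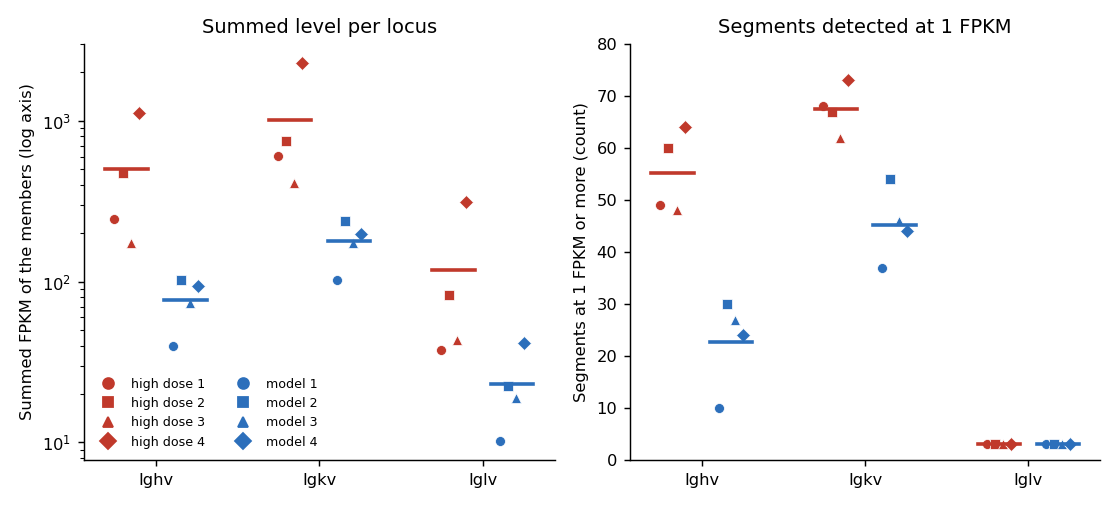
Left, summed FPKM of the members of each locus per library on a log axis. Right, number of members at 1 FPKM or more. Red, high dose; blue, model; symbols mark replicates and lines are group means. All 4 high dose libraries lie above all 4 model libraries for Ighv and Igkv in both panels, while the Iglv sums overlap and all 3 Iglv members are counted in every library.

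Lambda segments were a minor part of the light chain V signal in every library. They took 5.86%, 9.95%, 9.60% and 11.9% of the light chain V sum in the high dose libraries, against 9.04%, 8.64%, 9.72% and 17.2% in the model libraries. The groups overlapped, and the highest share was that of model replicate 4. The heavy chain part of the V sum was likewise similar, at 27.7% to 36.4% in the high dose libraries and 26.1% to 28.1% in the model libraries.

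More segments reached 1 FPKM in the high dose libraries. Of 65 Ighv members, 49, 60, 48 and 64 did so in the high dose libraries, against 10, 30, 27 and 24 in the model libraries. Of 73 Igkv members, the counts were 68, 67, 62 and 73 in the high dose libraries, against 37, 54, 46 and 44 in the model libraries. These groups did not overlap, but such a count moves with the summed level, and members that entered only through the high dose mean contribute to it. In all, 100 members reached 1 FPKM in all 4 high dose libraries, 39 in all 4 model libraries and 39 in all 8, while 33 reached it in no model library and every member reached it in at least 1 high dose library.

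When the level was set aside and each segment was taken as a share of its locus, the values for breadth overlapped between the groups. The effective number of segments, the exponential of the Shannon entropy of the shares, says how many equally abundant segments would give the same evenness. For Ighv it was 38.8, 40.9, 44.2 and 38.6 in the high dose libraries, against 37.6, 37.5, 43.4 and 34.2 in the model libraries. For Igkv it was 43.8, 43.4, 47.3 and 43.3 in the high dose libraries, against 50.3, 44.5, 40.8 and 31.3 in the model libraries. Both sets of values overlapped between groups. The difference of means, high dose minus model, was 2.45 for Ighv, which turned to -0.881 when all 120 Ighv names were used, and 2.71 for Igkv, which turned to -0.770 without model replicate 4. The Igkv values spanned a narrower range in the high dose libraries (SD 1.94) than in the model libraries (SD 7.98), a difference that was not tested.

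No single heavy or kappa segment came near to making up most of its locus. The largest Ighv share was 9.35%, 11.7%, 10.1% and 11.8% in the high dose libraries, against 9.30%, 10.6%, 9.22% and 10.6% in the model libraries. The largest Igkv share was 10%, 10.3%, 6.40% and 12.2% in the high dose libraries, against 6.73%, 7.79%, 10.5% and 13.6% in the model libraries. Reaching 50% of the Ighv sum took 10, 12, 13 and 10 segments in the high dose libraries and 10, 9, 13 and 8 in the model libraries. For 50% of the Igkv sum, 12, 12, 13 and 13 segments were needed in the high dose libraries and 15, 13, 11 and 6 in the model libraries. Model replicate 4 was thus the library with the most uneven kappa repertoire, and its 5 highest Igkv segments held 47.4% of the sum.

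**Figure D2:**
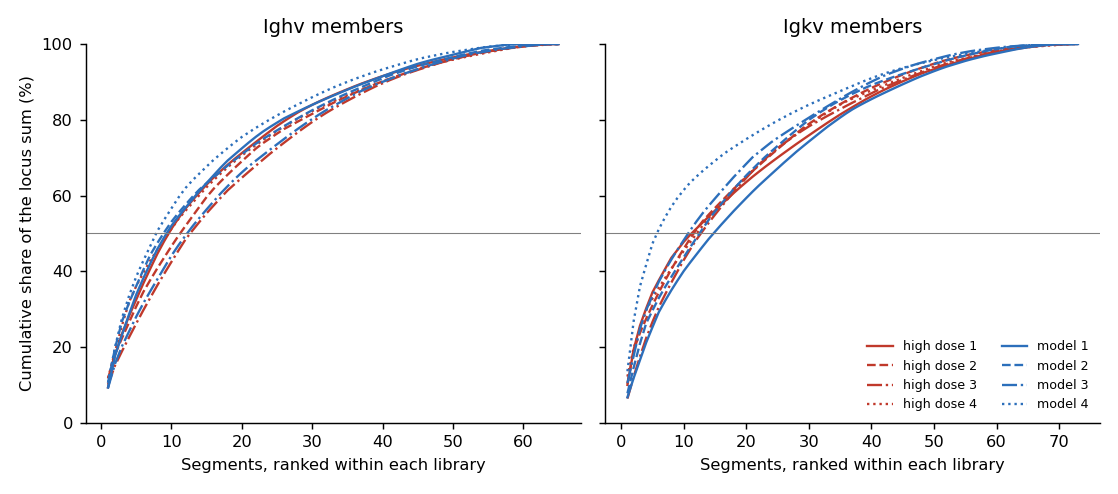
Cumulative share of the locus sum in percent (y) against the number of segments, ranked from the most abundant within each library (x), for Ighv and Igkv members. Red, high dose; blue, model; line styles mark replicates and the grey line is 50%. The curves of the groups run together, apart from the kappa curve of model replicate 4, which passes 50% after 6 segments.

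The leading kappa segment was the same in all 4 high dose libraries and differed among all 4 model libraries. Among kappa segments, Igkv1-117 led all 4 high dose libraries and model replicate 1, while Igkv1-110, Igkv15-103 and Igkv10-96 led model replicates 2, 3 and 4. Among heavy segments, Ighv1-53 led high dose replicates 2, 3 and 4 and Ighv1-81 led high dose replicate 1. In the model libraries, the leading heavy segments were Ighv1-81, Ighv1-55, Ighv1-64 and Ighv1-54 in replicates 1 to 4. Ighv1-54 shows how local such a lead can be: it stood at 0.551, 6.77, 2.28 and 12.3 FPKM in the high dose libraries, against 0.450, 0.431, 0.309 and 9.92 FPKM in the model libraries, so that model replicate 4 alone carried the model group's level (log2 fold change 1.04 ± 0.86, adjusted p = 0.506).

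The overlap of 2 libraries can be put as the sum, over segments, of the smaller of their 2 shares. For Ighv its median was 70.8% over the 6 pairs of high dose libraries, 61.7% over the 6 pairs of model libraries and 65.3% over the 16 pairs between groups. For Igkv the medians were 70.8% over high dose pairs, 67.2% over model pairs and 68.9% between groups. The ranges of high dose and model pairs overlapped at both loci: for Ighv they were 67.5% to 79.4% over high dose pairs and 60.9% to 68.6% over model pairs. Pairs share libraries, and low levels make shares noisier, so these values are a description.

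**Figure D3:**
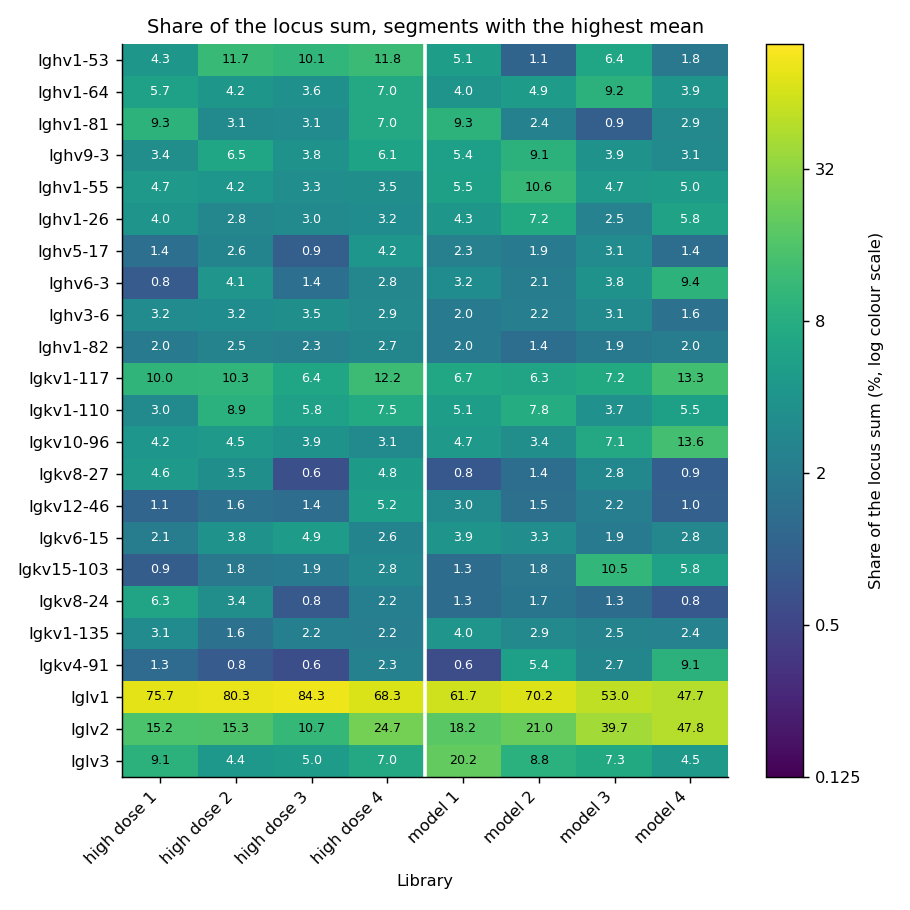
Share of the locus sum in percent (number and log colour scale) of the 10 Ighv and 10 Igkv members with the highest mean and of the 3 Iglv members (rows) in each library (columns, high dose left of the white line and model right of it). Igkv1-117 holds 6.40% to 12.2% of the kappa sum in the high dose libraries and 6.27% to 13.3% in the model libraries, while Iglv1 holds most of the lambda sum in every library but model replicate 4.

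In the fit across 14418 genes, 43 of the 141 segments were higher in the high dose group at an adjusted p under 0.05, 1 was lower and 97 did not pass. The 43 were 30.5% of the members, where 5.86% of all tested genes were called higher and 4.27% lower. The called members comprised 20 higher and 1 lower of 65 Ighv, 23 higher of 73 Igkv and 0 of 3 Iglv (1 at an unadjusted limma p under 0.05). At an unadjusted p under 0.05, 104 members were higher, against 15.8% of all tested genes, and 1 was lower. The log2 fold change, on the log2(FPKM + 1) scale, was above 0 for 139 of the 141, with a median of 1.54 over the members and 0.04 over all genes. The 4 high dose values lay above the 4 model values for 66 members (46.8%, where 11.3% of all genes did so), and the reverse held for 1 member (6.46% of all genes). Part of these counts follows from the choice of members: among the 76 with a mean of at least 1 FPKM in both groups, 24 were higher (31.6%, against 5.66% of genes meeting the same condition), with a median of 1.73.

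The number of calls rested on several libraries. It was 23 higher without high dose replicate 2, and leaving out model replicate 1, 3 or 4 gave 14, 17 and 19 in turn. Over all 14418 genes the calls higher fell as well, from 845 to 556, 436, 364 and 513 in the same fits. When genes of any level were tested, 22 members were called higher, beside 518 of 29739 genes. The single lower call was lost without high dose replicate 1, high dose replicate 4, model replicate 1 or model replicate 4. Of the 44 called segments, 13 passed in all 8 fits that left out 1 library. Among the 13, Ighv1-42, Ighv1-62-3, Ighv1-75, Ighv4-1, Ighv5-16, Igkv2-109, Igkv6-13, Igkv6-14 and Igkv8-19 reached 1 FPKM through the high dose mean alone. The direction of those segments was fixed by the choice of members.

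**Figure D4:**
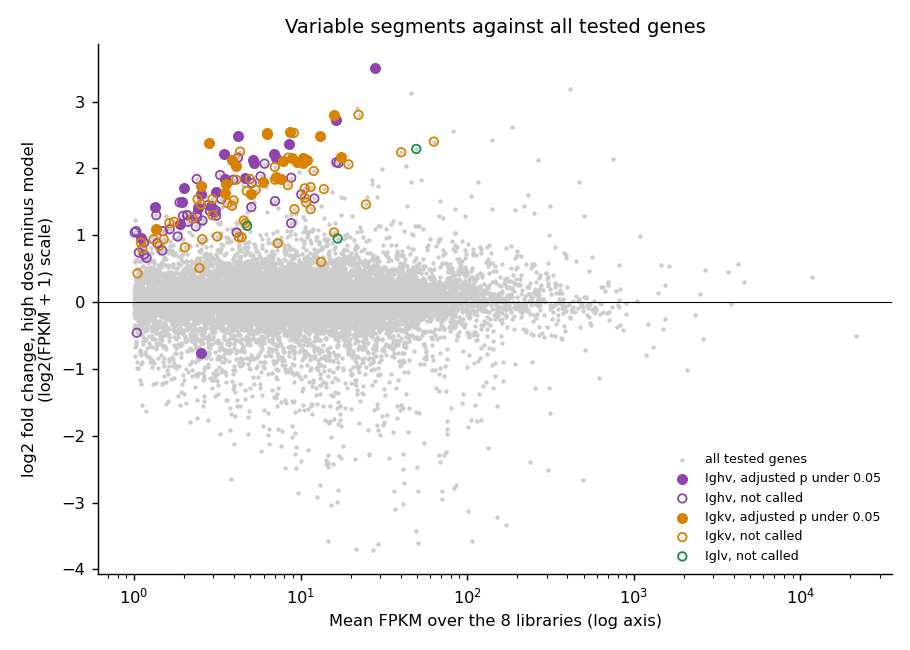
Fold change as the difference of log2(FPKM + 1), high dose minus model (y), against the mean FPKM over the 8 libraries on a log axis (x). Grey, the 14418 tested genes; coloured circles, the V segments, filled where the adjusted p was under 0.05. Of the 141 segments, 139 lie above 0, and Ighv1-53 is the highest at 3.50.

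Among heavy chain segments, Ighv1-53 had the largest change. It stood at 10.5, 55.5, 17.6 and 131 FPKM in the high dose libraries, against 2.03, 1.10, 4.72 and 1.69 FPKM in the model libraries (log2 fold change 3.50 ± 0.72 SE, adjusted p = 0.0220). The groups did not overlap, but the call was lost without high dose replicate 2, model replicate 1 or model replicate 4 (highest adjusted p = 0.0571). Ighv1-81 stood at 23.1, 14.7, 5.48 and 78.4 FPKM in the high dose libraries, against 3.70, 2.38, 0.695 and 2.72 FPKM in the model libraries (2.73 ± 0.69, adjusted p = 0.0429). It passed in 1 of the 8 fits without a library, and not when genes of any level were tested (adjusted p = 0.0758) or when libraries were rescaled to the sum of named genes (adjusted p = 0.0535).

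Ighv1-42 stood at 4.17, 13.9, 2.83 and 11.1 FPKM in the high dose libraries, against 0.319, 0.865, 0.448 and 0 FPKM in the model libraries. It became a member through the high dose mean alone, so its direction was fixed by that choice. Its log2 fold change of 2.49 ± 0.43 (adjusted p = 0.0121) passed in all 8 fits without a library and was 4.11 with a pseudocount of 0.1, since adding 1 FPKM understates changes of low genes. Ighv3-6 stood at 7.80, 15.3, 6.08 and 32.0 FPKM in the high dose libraries, against 0.812, 2.20, 2.29 and 1.47 FPKM in the model libraries (2.37 ± 0.46, adjusted p = 0.0179), and lost its call without model replicate 1 alone. Ighv1-82 was also called (2.16 ± 0.53, adjusted p = 0.0376), with 5.03, 11.9, 4.02 and 30.2 FPKM in the high dose libraries against 0.809, 1.43, 1.37 and 1.93 FPKM in the model libraries. It kept that call in 3 of the 8 fits without a library.

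The other abundant heavy segments did not pass the test. Ighv1-64 stood at 14.0, 20.2, 6.25 and 78.0 FPKM in the high dose libraries, against 1.58, 4.95, 6.81 and 3.70 FPKM in the model libraries (2.08 ± 0.68, adjusted p = 0.0952). Ighv9-3 stood at 8.48, 30.7, 6.63 and 68.0 FPKM in the high dose libraries, against 2.15, 9.26, 2.86 and 2.89 FPKM in the model libraries (2.09 ± 0.72, adjusted p = 0.109). In both, 1 model library lay within the high dose range. Ighv1-55, Ighv1-26, Ighv5-17 and Ighv6-3 had log2 fold changes of 1.55, 1.61, 1.86 and 1.18 with adjusted p from 0.123 to 0.427, and their groups overlapped. Without high dose replicate 4 the fold change was 1.07 for Ighv5-17 and 0.58 for Ighv6-3.

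Ighv11-2 was the only segment called lower. It stood at 1.40, 2.19, 1.87 and 1.09 FPKM in the high dose libraries, against 3.37, 4.09, 2.60 and 3.70 FPKM in the model libraries (log2 fold change -0.76 ± 0.17, adjusted p = 0.0229). The groups did not overlap, although the call was lost in 4 of the 8 fits without a library (highest adjusted p = 0.0597). Its share of the Ighv sum was 0.549 ± 0.403% in the high dose group and 4.99 ± 2.34% in the model group, and it was the second most abundant heavy segment in model replicate 1. The share differs more than the level because the sum itself was larger in the high dose group. Ighv11-2 averaged 1.63 FPKM there and 3.44 FPKM in the model group, whereas the Ighv sum averaged 503 and 77.3 FPKM. Ighv11-2 differs clearly from the other members: its closest relative among them, Ighv4-1, was 76.5% identical. The Ighv11 family has 2 names, however, and the other was no member and was not compared. Reads shared with that name therefore cannot be judged.

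In mice, Ighv11-2 paired with Igkv14-126, and Ighv12-3 paired with Igkv4-91, are known from B-1a cells, a self-renewing B cell population whose natural antibodies include recurrent receptors for phosphatidylcholine. The partners were looked at for that reason, after the values were seen. Igkv14-126 is an identifier without an entry in the name column and so no member: it stood at 3.84, 6.80, 5.11 and 3.52 FPKM in the high dose libraries, against 6.24, 11.89, 5.57 and 9.34 FPKM in the model libraries, and high dose replicate 2 lay within the model range. Ighv12-3 stood at 1.18, 0.470, 0.0751 and 0.578 FPKM in the high dose libraries, against 0.0910, 1.64, 0.386 and 3.91 FPKM in the model libraries, which overlapped (-0.46 ± 0.45, adjusted p = 0.576). Igkv4-91 stood at 7.91, 6.35, 2.56 and 53.5 FPKM in the high dose libraries, against 0.627, 12.8, 4.66 and 18.1 FPKM in the model libraries (0.60 ± 0.98, adjusted p = 0.757), and its fold change was -0.19 with high dose replicate 4 left out and -0.10 with model replicate 1 left out. Ighv11-2 and Ighv12-3 were the 2 members with a log2 fold change below 0, but the sign of Ighv12-3 was fixed by its choice, since it reached 1 FPKM through the model mean alone. Model replicate 4 had the highest Ighv12-3 and the highest Igkv4-91 among the model libraries. The plot of single segments shows these values.

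**Figure D5:**
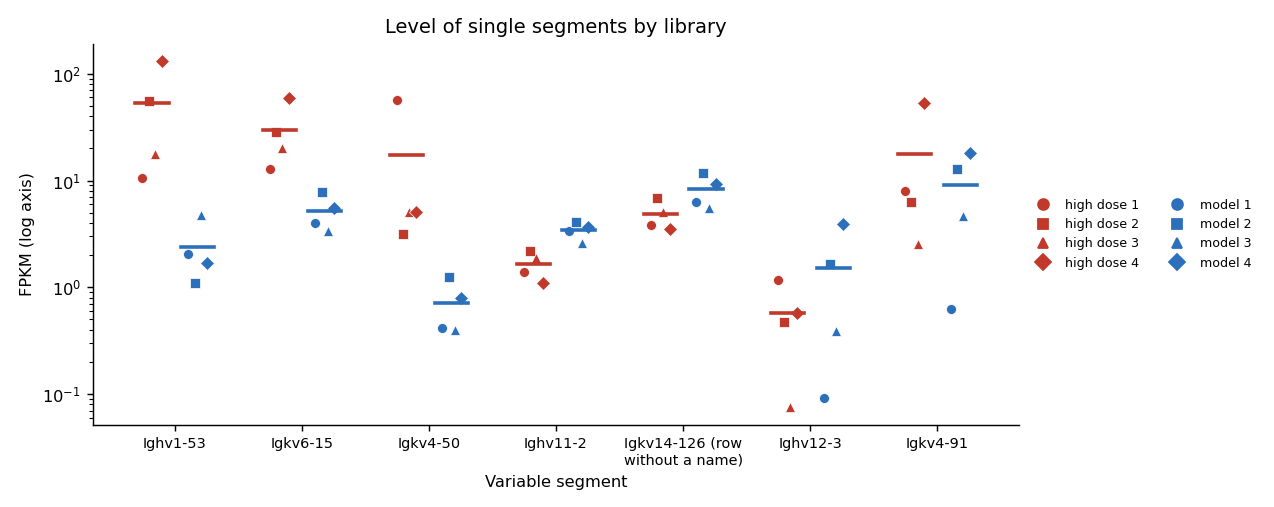
FPKM on a log axis (y) of 7 V segments (x) in each library. Red, high dose; blue, model; symbols mark replicates and lines are group means. Ighv1-53 and Igkv6-15 lie higher in all high dose libraries, the Igkv4-50 mean of the high dose group rests on replicate 1 at 56.7 FPKM, and Ighv11-2 lies higher in all model libraries.

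Among kappa segments, the 2 with the highest means, Igkv1-117 and Igkv1-110, had higher means in the high dose group but a wide spread. Igkv1-117 stood at 60.6, 76.9, 26.1 and 281 FPKM in the high dose libraries, against 6.88, 14.9, 12.7 and 26.5 FPKM in the model libraries (2.40 ± 0.67, adjusted p = 0.0601). Igkv1-110 stood at 17.9, 66.7, 23.7 and 172 FPKM in the high dose libraries, against 5.23, 18.5, 6.51 and 11.0 FPKM in the model libraries (2.24 ± 0.70, adjusted p = 0.0830). Neither passed in the fit without covariates, and 1 library of each group stood within the range of the other; Igkv1-117 passed without high dose replicate 3 (adjusted p = 0.0397). As the sequences of this pair show, a short read may fit both, so their ratio is less certain than their sum.

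Igkv6-15 stood at 12.9, 28.4, 20.2 and 58.8 FPKM in the high dose libraries, against 4.02, 7.76, 3.37 and 5.53 FPKM in the model libraries (2.17 ± 0.42, adjusted p = 0.0181), with no overlap. It lost its call without model replicate 1 or model replicate 3. Its relative Igkv6-17 stood at 6.83, 23.2, 13.5 and 50.9 FPKM in the high dose libraries, against 2.56, 3.36, 1.70 and 2.43 FPKM in the model libraries (2.49 ± 0.51, adjusted p = 0.0210), and passed in 5 of the 8 fits without a library. The Igkv6 family had 4 of its 8 members called higher, where 31.5% of all kappa members and 5.86% of all genes were. Of the 4, Igkv6-13 and Igkv6-14 reached 1 FPKM through the high dose mean alone, so their direction was fixed by that choice. The family's share of the kappa sum was 11.1 ± 2.75% in the high dose group and 10.3 ± 2.43% in the model group, which overlapped.

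The Igkv8 family had 5 of 8 members called higher, beside the 31.5% of all kappa members and 5.86% of all genes. Of the 5, Igkv8-19 reached 1 FPKM through the high dose mean alone. Igkv8-28 stood at 4.27, 20.7, 8.71 and 12.4 FPKM in the high dose libraries, against 0.425, 1.70, 0.238 and 1.75 FPKM in the model libraries (2.53 ± 0.45, adjusted p = 0.0134), and passed in all 8 fits without a library. Igkv8-24 stood at 38.0, 25.6, 3.33 and 51.1 FPKM in the high dose libraries, against 1.35, 3.94, 2.35 and 1.57 FPKM in the model libraries (2.80 ± 0.72, adjusted p = 0.0438). High dose replicate 3 overlapped with the model libraries there, and the call held in 1 of the 8 fits without a library; it also failed when genes of any level were tested (adjusted p = 0.0772) or libraries were rescaled (adjusted p = 0.0547). Igkv8-27, at 27.9, 26.1, 2.58 and 111 FPKM in the high dose libraries and 0.808, 3.29, 4.94 and 1.86 FPKM in the model libraries, had the same low value in high dose replicate 3 and did not pass (2.80 ± 0.92, adjusted p = 0.0982), except without that library (adjusted p = 0.0207). The family held 12.4 ± 3.58% of the kappa sum in the high dose group and 6.64 ± 1.19% in the model group, with high dose replicate 3, at 7.60%, inside the model range of 5.12% to 7.92%.

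In the Igkv4 family, the largest kappa family with 19 members, 3 were called higher, again beside 31.5% of kappa members and 5.86% of all genes. Of the 3, Igkv4-61 and Igkv4-90 reached 1 FPKM through the high dose mean alone. Igkv4-55 stood at 4.22, 7.23, 21.5 and 30.8 FPKM in the high dose libraries, against 0.359, 1.15, 3.05 and 1.26 FPKM in the model libraries (2.54 ± 0.59, adjusted p = 0.0312), and passed in 2 of the 8 fits without a library. Igkv4-61 stood at 8.40, 6.53, 3.09 and 29.4 FPKM in the high dose libraries, against 0.896, 1.29, 0.370 and 0.352 FPKM in the model libraries (2.52 ± 0.54, adjusted p = 0.0247), and passed in 4 of them. Igkv4-50, singled out after its values were seen, had 1 library far above the rest: it stood at 56.7, 3.17, 5.12 and 5.07 FPKM in the high dose libraries, against 0.416, 1.25, 0.402 and 0.790 FPKM in the model libraries (2.53 ± 0.75, adjusted p = 0.0722). The groups did not overlap, and, like Igkv4-61, it reached 1 FPKM through the high dose mean alone. It held 9.35% of the kappa sum in high dose replicate 1, second to Igkv1-117, and 0.221% to 1.25% in every other library. The share of the whole family overlapped between groups, at 18.4 ± 4.22% in the high dose group and 17.9 ± 4.34% in the model group.

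In some abundant kappa segments 1 library lay far above the others of its group. Igkv12-46 stood at 6.78, 11.7, 5.60 and 119 FPKM in the high dose libraries, against 3.04, 3.49, 3.83 and 1.93 FPKM in the model libraries (2.06 ± 0.84, adjusted p = 0.165); without high dose replicate 4 its fold change was 1.11 and passed (adjusted p = 0.0482). Igkv15-103 stood at 5.42, 13.5, 7.89 and 64.7 FPKM in the high dose libraries, against 1.37, 4.26, 18.5 and 11.5 FPKM in the model libraries (1.04 ± 0.85, adjusted p = 0.501). Model replicate 3 was thus above 3 of the 4 high dose libraries, and the fold change was 0.34 without high dose replicate 4. Igkv10-96 stood at 25.6, 33.8, 15.9 and 70.4 FPKM in the high dose libraries, against 4.79, 7.97, 12.5 and 27.2 FPKM in the model libraries (1.46 ± 0.56, adjusted p = 0.143).

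Igkv1-135 stood at 19.0, 11.8, 9.19 and 50.1 FPKM in the high dose libraries, against 4.13, 6.81, 4.38 and 4.76 FPKM in the model libraries, with no overlap (1.69 ± 0.46, adjusted p = 0.0533). It passed without high dose replicate 4, its highest library (1.21, adjusted p = 0.0338), and without high dose replicate 3 (adjusted p = 0.0464). A minimum mean of 5 FPKM (adjusted p = 0.0456) or the pseudocount 0.1 (adjusted p = 0.0398) also let it pass, and over all alternatives run the adjusted p was 0.0338 to 0.138.

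Among the segments whose call held without any 1 library were several of lower abundance, named here after their values were seen. Igkv6-14 was at 2.49, 4.96, 5.98 and 8.43 FPKM in the high dose libraries, against 0, 0, 0.191 and 0.582 FPKM in the model libraries (adjusted p = 0.00404). Ighv4-1 was at 2.37, 4.60, 2.46 and 5.11 FPKM in the high dose libraries, against 0.0874, 0.239, 0.608 and 0.614 FPKM in the model libraries (adjusted p = 0.00492). Ighv5-16 was at 6.86, 3.21, 8.82 and 6.65 FPKM in the high dose libraries, against 0.273, 1.50, 0.519 and 0.0883 FPKM in the model libraries (adjusted p = 0.00575). These 3 reached 1 FPKM through the high dose mean alone, so their direction follows from the choice of members and their p-values are a description. In them, high dose replicate 4 was not far above the other high dose libraries. Igkv16-104 and Igkv12-44 reached 1 FPKM in both groups, with 10 ± 4.92 and 17.6 ± 8.89 FPKM in the high dose group against 1.95 ± 0.140 and 3.08 ± 0.873 FPKM in the model group (adjusted p = 0.00601 and 0.00900).

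The lambda locus of the mouse has few V segments, and all 3 were members. Iglv1 stood at 28.6, 66.5, 36.6 and 212 FPKM in the high dose libraries, against 6.26, 15.7, 10 and 19.7 FPKM in the model libraries (2.29 ± 0.61, adjusted p = 0.0512), with no overlap. It passed with a pseudocount of 0.1 (adjusted p = 0.0437) and after quantile normalization (adjusted p = 0.0481). Iglv2 stood at 5.74, 12.6, 4.66 and 76.8 FPKM in the high dose libraries, against 1.85, 4.71, 7.50 and 19.8 FPKM in the model libraries, which overlapped (0.95 ± 0.89, adjusted p = 0.559, and 0.14 without high dose replicate 4). Iglv3 stood at 3.43, 3.66, 2.15 and 21.7 FPKM in the high dose libraries, against 2.05, 1.98, 1.37 and 1.88 FPKM in the model libraries, without overlap (1.14 ± 0.55, adjusted p = 0.238). Iglv1 held 75.7%, 80.3%, 84.3% and 68.3% of the lambda sum in the high dose libraries, against 61.7%, 70.2%, 53.0% and 47.7% in the model libraries, and high dose replicate 4 lay within the model range. In model replicate 4, Iglv2 held 47.8%, level with Iglv1. Iglv1 and Iglv2 are the near-identical pair printed above, so part of each value may belong to the other.

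By family, the large Ighv1 group took a larger share of the heavy chain sum of the members in every high dose library. Ighv1 held 64.5%, 58.9%, 60.7% and 64.8% in the high dose libraries, against 56.8%, 55.2%, 52.2% and 50.3% in the model libraries. These shares cover only the 35 members among 60 Ighv1 names, some of which entered through the high dose mean alone. Family shares over all Ighv names were not computed, so the choice of members may have a part in this difference. The mean was 62.2 ± 2.90% in the high dose group and 53.6 ± 2.93% in the model group. Within the family, Ighv1-53 alone held 4.27%, 11.7%, 10.1% and 11.8% of the heavy chain sum in the high dose libraries. In the model libraries Ighv1-53 held 5.11%, 1.08%, 6.39% and 1.80%. Without Ighv1-53 the shares of the family would overlap between the groups, since high dose replicate 2 would fall below model replicate 2. The separation of the groups at the level of the family thus depends on this 1 segment, and the size of its part was not tested. Of the 35 Ighv1 members, 13 were called higher and 0 lower, beside 30.8% of all Ighv members and 5.86% of all genes called higher. Among the 13, Ighv1-22, Ighv1-42, Ighv1-62-3, Ighv1-69, Ighv1-75 and Ighv1-80 reached 1 FPKM through the high dose mean alone. Ighv11, with Ighv11-2 as its only member here, was the only other heavy or kappa family whose shares did not overlap between groups. The shares of the other heavy families, of 13, and of all 16 kappa families overlapped; Ighv5, the second largest heavy family by members, held 8.81 ± 1.48% in the high dose group and 7.05 ± 3.35% in the model group. When the segments of a locus were split into 3 equal parts by their order from the J segments in RefSeq, the shares of all 3 parts overlapped for both loci. Of the Igkv members nearest to the J segments, 12 of 23 were called higher, beside 4 of 26 in the middle part and 7 of 24 in the farthest. Over all genes 5.86% were called higher, and the difference between the parts was not tested. Each part counted called segments that reached 1 FPKM through the high dose mean alone. Examples were Igkv3-12 in the nearest part, Igkv4-61 in the middle and Igkv2-109 in the farthest. The V segments Ighv7-3 and Ighv7-1 have identifiers without an entry in the name column and were not members.

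Constant region genes, which are joined to the V part in the finished transcript, give a measure of the same RNA that did not choose the members, although the libraries are the same. Igkc, the kappa constant region, stood at 713, 929, 600 and 2769 FPKM in the high dose libraries, against 159, 372, 198 and 243 FPKM in the model libraries (log2 fold change 2.14 ± 0.48, adjusted p = 0.0278). The ratio of summed Igkv to Igkc was 0.851, 0.806, 0.680 and 0.829 in the high dose libraries, against 0.643, 0.638, 0.887 and 0.818 in the model libraries, which overlapped. The J segments of the heavy chain locus summed to 12.1, 7.74, 8.58 and 9.51 FPKM in the high dose libraries, against 10.8, 4.80, 7.45 and 3.56 FPKM in the model libraries, and these values overlapped as well. Jchain, which links IgA and IgM into polymers, stood at 75.9, 95.7, 50.5 and 358 FPKM in the high dose libraries, against 11.5, 33.2, 14.6 and 16.1 FPKM in the model libraries (2.56 ± 0.58, adjusted p = 0.0292). The calls of Igkc and Jchain were each lost without high dose replicate 2 or model replicate 1, 3 or 4, and also when genes of any level were tested (adjusted p = 0.0515 and 0.0545). That of Jchain was lost without high dose replicate 1 too. The lambda constant genes Iglc1, Iglc2 and Iglc3 had log2 fold changes of 1.99, 1.14 and 1.01 and did not pass (adjusted p = 0.0767, 0.195 and 0.0768).

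Among the heavy chain classes, Igha, Ighg2b and Ighg2c passed the test and Ighm and Ighd did not; the difference between these fold changes was not tested. Igha, the constant region of IgA, stood at 285, 647, 214 and 1908 FPKM in the high dose libraries, against 40.8, 103, 58.3 and 42.7 FPKM in the model libraries (3.18 ± 0.65, adjusted p = 0.0215; lost without high dose replicate 2 or model replicate 1, 3 or 4). Ighg2b (2.90 ± 0.37, adjusted p = 0.00458) and Ighg2c (3.12 ± 0.63, adjusted p = 0.0198) encode IgG classes and were also higher, the call of Ighg2c being lost without high dose replicate 1 or 3. Ighg1 (2.17, adjusted p = 0.0721) and Ighg3 (0.50, adjusted p = 0.711) did not pass, and Ighe averaged 0.152 ± 0.175 FPKM in the high dose group and 0.00435 ± 0.00870 FPKM in the model group, under the level tested. Ighm and Ighd, the classes of B cells that have not switched, had fold changes of 0.29 and 0.55 and did not pass (adjusted p = 0.511 and 0.319). Igha made up 62.1%, 81.7%, 49.6% and 82.8% of the summed heavy constant FPKM in the high dose libraries, against 36.3%, 49.2%, 40.4% and 30.2% in the model libraries. For Ighm the shares were 11.4%, 9.05%, 14.7% and 4.94% in the high dose libraries, against 40.5%, 36.6%, 36.7% and 46.6% in the model libraries, with no overlap for either gene.

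Among all genes tested 5.86% were called higher and 4.27% lower, and 3688 of 14418 had an unadjusted limma p under 0.05. Of 17 B cell markers tested, 2 were higher, Fcer2a (the low-affinity IgE receptor gene; 1.48, adjusted p = 0.0406) and the transcription factor gene Spib (0.77, adjusted p = 0.0288), and 15 were not called, with a median log2 fold change of 0.54; 10 of the 17 had an unadjusted p under 0.05. Cd79a, part of the B cell receptor complex, averaged 44.5 ± 14.4 FPKM in the high dose group and 24.9 ± 10.2 FPKM in the model group and did not pass (0.85, adjusted p = 0.128). Of 13 plasma cell markers, 4 were higher and 9 not called (median 0.22; 5 at an unadjusted p under 0.05): Jchain, Mzb1 (1.06, adjusted p = 0.0470), Sdc1 (0.92, adjusted p = 0.00419) and Txndc5 (0.55, adjusted p = 0.0182). Mzb1, a chaperone of antibody assembly, stood at 10.5, 10.5, 7.63 and 21 FPKM in the high dose libraries, against 5.06, 7.31, 4.09 and 4.23 FPKM in the model libraries. Sdc1 is also made by lung epithelium. Of 7 germinal centre and follicle genes, 1 was higher (S1pr2, 0.72, adjusted p = 0.00768; list median 0.29), and of 3 recombination and class switching genes 0 were called (median 0.10; 0 at an unadjusted p under 0.05). Rag1, part of the recombinase that joins V segments, averaged 0.138 FPKM in the high dose group and 0.0218 FPKM in the model group, under the level tested. Its high dose mean rested on replicate 2, at 0.478 FPKM, and the groups overlapped. Of 7 immunoglobulin transport and Fc receptor genes, 0 were higher and 2 lower, Fcgr4 (-2.82, adjusted p = 0.0109) and Fcer1g (-1.19, adjusted p = 0.0181), with a list median of -0.85.

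Other cell types also differed between the groups, and their part in the V segment results was not tested. All 8 neutrophil markers were lower (median log2 fold change -2.38), and their summed FPKM was 113 to 420 in the high dose libraries against 1069 to 2768 in the model libraries; 4.27% of all genes were called lower. Of 6 alveolar type 2 cell markers, 3 were higher, where 5.86% of all genes were (median 0.54; summed FPKM 14179 to 20656 in the high dose libraries and 10568 to 15740 in the model libraries). By limma's adjusted p, 0 of 10 T cell (median -0.17), 0 of 5 endothelial (-0.03) and 0 of 6 fibroblast markers (0.90) were called, while 4, 2 and 3 of them had an unadjusted p under 0.05; the fibroblast sum was 429 to 622 FPKM in the high dose libraries and 180 to 504 FPKM in the model libraries. The labels name lung tissue and also MLF, mouse lung fibroblasts, for every library, whereas endothelial markers summed to 636 to 872 FPKM in the high dose libraries and 634 to 827 FPKM in the model libraries, and B cell markers to 155 to 269 FPKM in the high dose libraries and 86.2 to 183 FPKM in the model libraries. With surfactant genes also present, the values are described here as those of lung tissue. Relative depth, read from the steps between low values, was 1.08 to 1.34 in the high dose libraries and 1.00 to 1.17 in the model libraries, and the highest single table entry took 13.8% to 41.5% of the FPKM sum in the high dose libraries and 6.17% to 20.0% in the model libraries.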

How the data were processed

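Per the labels' protocols, total RNA was extracted with the Rneasy mini plus kit and made into libraries with SMARTER mRNA-Seq reagents. The values deposited by the authors were taken to be FPKM, that is, fragments per gene divided by gene length and library depth, in 1 table of 48632 rows with a column per library. The header names no unit: FPKM was read from the values, which hold decimals and have column sums that differ between libraries. The submitters' processing notes name the build mm39; the aligner, the counting tool and the handling of reads that fit several segments are not given in the sources used here. Read counts were not recovered, so the depth behind a value is known only relative to the other libraries and precision can be judged only from the 4 libraries within each group.

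Rows sharing a name were added together (14 V names lay on 2 rows, 9 of them members), and 7015 rows without a name were left out, 123 of which carry V segment identifiers. Log2(FPKM + 1) of the 14418 names with a mean of at least 1 FPKM was fitted with limma 3.58.1 (trended, robust) in R 4.3.3, high dose minus model, on all 8 libraries without covariates, and p-values were adjusted by the Benjamini-Hochberg method over all 14418. The procedure was also run on simulated data with errors drawn independently for each gene. V segments can rise together in 1 library, so that run does not measure how reliable the counts of called segments are. All adjusted p-values come from this limma fit or, where stated, from its alternatives: pseudocounts of 0.1 and 0.01, a minimum mean of 5 FPKM or none, other scalings, no trend, rows not summed, a replicate block, and each library left out. Locus sums, shares and effective numbers were computed in Python 3.11.15 over the members and given no test. Identities were computed with edlib 1.3.9.post1 on GENCODE M21 coding sequences, and no coordinates were used because that build, GRCm38, is not the one of the table. Figures were drawn with matplotlib 3.10.9.

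The members and the gene lists were chosen with earlier results of these data known. The segments named were the 10 Ighv, 10 Igkv and all Iglv members with the highest mean, the leading segment of each library, up to 8 called segments with the largest fold change in each direction and the 4 names nearest to the 1 FPKM limit; of the other lists, the constant regions and up to 4 genes with the smallest p were eligible. Other names are said in the text to have been chosen after their values were seen, or are there as relatives or partners of a named segment.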

Additional observations from a re-analysis of the deposited data

Results flagged for a closer look

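In 10 of 78 groups of 4 libraries examined among the named segments, the locus sums and the measures of evenness, 1 library lay far from the other 3 by Dixon's criterion. For independent, normally distributed values the criterion would mark about 1 in 20 groups. The groups here share libraries, and segments were named partly for leading a library or for a high mean. The count therefore cannot be set against that rate. Of the 10, 6 concerned high dose replicate 4 as the highest of its group: the Iglv sum at 311 FPKM, Igkv12-46 at 119 FPKM, Iglv2 at 76.8 FPKM, Igkv15-103 at 64.7 FPKM, Igkv4-91 at 53.5 FPKM and Iglv3 at 21.7 FPKM. In high dose replicate 3 the effective number of Igkv segments, at 47.3, lay above the other high dose libraries. Among model libraries, Ighv1-54 stood apart in replicate 4 at 9.92 FPKM, Ighv9-3 in replicate 2 at 9.26 FPKM and Ighv1-20 in replicate 3 at 0.468 FPKM.

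Among the table entries that have a V identifier but no name, and so were not members, Ighv7-3 stood at 6.6, 12.95, 5.66 and 28.0 FPKM in the high dose libraries, against 0.37, 1.33, 1.75 and 4.94 FPKM in the model libraries. Its lowest high dose value, 5.66 FPKM, lay above all 4 model values.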

How the results depend on the processing

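The count of segments higher in the high dose group (43) was 14 to 47 when 1 library was left out, 27 of 58 segments at a minimum mean of 5 FPKM, 22 when genes of any level were tested, and 55 or 53 with a pseudocount of 0.1 or 0.01. Over all genes the count higher (845) was 364 to 1176 when 1 library was left out and 674 of 10027 at a minimum mean of 5 FPKM. It was 518 of 29739 genes of any level, and 861 or 855 with a pseudocount of 0.1 or 0.01. The single lower call gave a count of 0 to 1 when 1 library was left out, and 0 at a minimum mean of 5 FPKM, with a fold of at least 1 on the log2 scale required, or with the replicate block. Replicate numbers did not pair the libraries (correlations of same-numbered deviations 0.154, 0.276, -0.068 and -0.0923; 1 of 4 libraries matched its own number best); with the replicate block 37 segments were higher and 0 lower, Igkv1-117 (adjusted p = 0.033) and Igkv1-110 (adjusted p = 0.0378) passed, Ighv1-53 did not (adjusted p = 0.0517), and 486 genes were higher and 469 lower over all, against 845 and 616 without it. Without model replicate 2 the genes called were 1176 higher and 969 lower, and without model replicate 3 they were 364 and 336. The Ighv effective number difference moved to -0.881 when all Ighv names were used. The fold change of Igkv4-91 ranged from -0.19 (high dose replicate 4 left out) to 1.12 (high dose replicate 3 left out) and was -0.10 with model replicate 1 left out. The cause of these changes was not tested. Some alternatives also held fewer genes or samples, and the part of that was not tested either. The log2 ratios of the locus sums moved by less than the spread between libraries under every alternative run, from 1.95 to 2.99 for Ighv, 1.72 to 2.77 for Igkv and 1.23 to 2.79 for Iglv. Of 1459 repeated values for 82 named genes, 1297 kept direction and side of the threshold, 117 lost a call, 43 gained one and 2 reversed. Reads per segment are unknown, so values under about 1 FPKM carry an error that cannot be stated.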

Other observations

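Ighv7-1, a V identifier without an entry in the name column, stood at 2.79, 2.35, 0.54 and 2.91 FPKM in the high dose libraries, against 0.29, 0.96, 6.93 and 5.40 FPKM in the model libraries, and the groups overlapped. The ratio of summed Iglv to summed Iglc FPKM was 0.765, 0.999, 0.816 and 1.17 in the high dose libraries, against 0.310, 0.607, 0.838 and 1.32 in the model libraries. Without any limit on level, 211 V names were above 0 in at least 1 library, and 200 of them had a log2 fold change above 0. Of the 211, 24 were called higher and 1 lower in the limma fit on genes of any level, beside 518 higher and 438 lower of 29739 genes.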
